A study of Mus musculus with 18 samples.

Results

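The genes described here make, degrade and carry glycosaminoglycans, the long sulfated sugar chains of the cell surface and the extracellular matrix. They were taken from a fixed list of names, which matched 39 of the 49585 genes in the count table. Their known roles divide them into 11 synthesis genes, 13 breakdown genes, 14 core proteins and 1 intracellular hyaluronan-binding protein, Hmmr.

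RNA-Seq was performed on CD45+ leukocytes of Kaede mice, whose photoconvertible protein is switched from green to red by light, so that red cells found later in a draining lymph node are cells that left the exposed tissue. There were 6 groups with 3 libraries each. Joint nonmigrated and skin nonmigrated cells were sorted from the inflamed ankle joint and the inflamed ear pinna. Joint migrated and skin migrated cells were Kaede red+ cells sorted from the lymph nodes draining those sites. Mice of these 4 groups had received OT-II Th1 cells, were immunized with ovalbumin in complete Freund's adjuvant and were challenged 10 days later with 100 µg of heat-aggregated ovalbumin (HAO) in the footpad or the ear. The other groups were node cells that the labels call steady state, from the nodes draining the joint and the ear. The sample titles carry PBS and KG for the joint-draining steady-state nodes and Naive for the ear-draining ones. By these titles, site and treatment cannot be told apart between the steady-state groups. The same holds for any difference between sites in the change from steady state to inflammation. The labels do not spell out KG, while the sorting protocol names Kaede red+ cells for all samples. If KG stands for Kaede green, the joint-draining steady-state cells were not cells that had left the joint, and every comparison with them then sets cells from the joint against other node cells. All mice were young adults matched for age and sex. Each library came from a sorted pool of cells from several mice in the inflamed groups, so p values measure the spread between pools and not between single animals.

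A glycosaminoglycan chain is built in the Golgi on a serine of a core protein, starting with xylose added by xylosyltransferases and continuing as chondroitin, dermatan or heparan sulfate through polymerases and sulfotransferases. Hyaluronan is the exception, since it is spun out at the plasma membrane by the Has synthases without a core protein or sulfate. Chains that are taken up by cells are cut in lysosomes by a fixed order of sulfatases and glycosidases, and inherited loss of these enzymes causes the mucopolysaccharidoses. In joints, aggrecan, small leucine-rich proteoglycans and lubricin belong to cartilage, matrix and synovial fluid, whereas in blood cells serglycin packs the contents of secretory granules.

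Assigned counts ranged from 19239531 to 43814403 per library and all 6 libraries from inflamed skin had 22528895 or fewer, so that depth and site cannot be told apart in the inflamed groups. Skin steady-state libraries had 28577566 or more, so depth and inflammation cannot be told apart between skin migrated and skin steady-state cells either. The column names of the 6 libraries from inflamed skin also have another form than the rest, which the labels do not explain. A summed leukocyte list (Ptprc, Coro1a, Laptm5, Itgb2) reached 4109 to 6465 CPM (read counts relative to the TMM-scaled library size, the unit of every level given here) in every library. Monocyte and macrophage markers summed to 18480 to 22175 CPM in joint nonmigrated, 4485 to 12187 in skin nonmigrated and at most 565 in any node library. Transcripts of structural cells were measured in the tissue sorts, and their source was not tested. A fibroblast list without Thy1, which T cells also express, summed to 113 to 325 CPM in joint nonmigrated, 47.5 to 205 in skin nonmigrated and at most 9.47 in the nodes. Keratinocyte markers summed to 23.7 to 281 CPM in skin nonmigrated and to 2.28 or less elsewhere. Skin nonmigrated replicate 3 stood apart from its group, with macrophage markers at 12187 CPM against 6094 and 4485 and keratinocyte markers at 23.7 CPM against 139 and 281. Member calls that change without this library are given beside the results. In bulk samples, fewer cells of a type and less RNA per cell cannot be told apart.

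Compared per kilobase of exon, core proteins spanned the widest range of levels. Srgn (serglycin) was the highest of all 14 core proteins in every group, at a mean of 402 CPM per kb in joint nonmigrated, 1490 in skin nonmigrated, 255 in joint migrated, 289 in skin migrated, 169 in joint steady state and 96.8 in skin steady state cells. The cell-surface syndecans came next: Sdc3 reached 192 and 163 CPM per kb in joint and skin nonmigrated cells, and Sdc4 90.8 and 112. Among breakdown genes Hexa, the α subunit of β-hexosaminidase, led every group, from 26.2 CPM per kb in skin steady state to 230 in joint nonmigrated cells. Among synthesis genes the chondroitin sulfotransferase Chst12 led in the tissues, at 43.1 and 48.8 CPM per kb, and the chondroitin polymerase Chsy1 led in all node groups, at 14.6 to 28.3. The cartilage proteoglycan Acan (aggrecan) was near the counting floor everywhere outside skin nonmigrated cells. The floor is 3 counts, which equals 0.0616 to 0.18 CPM depending on the library and covers counting error only.

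**Figure D1:**
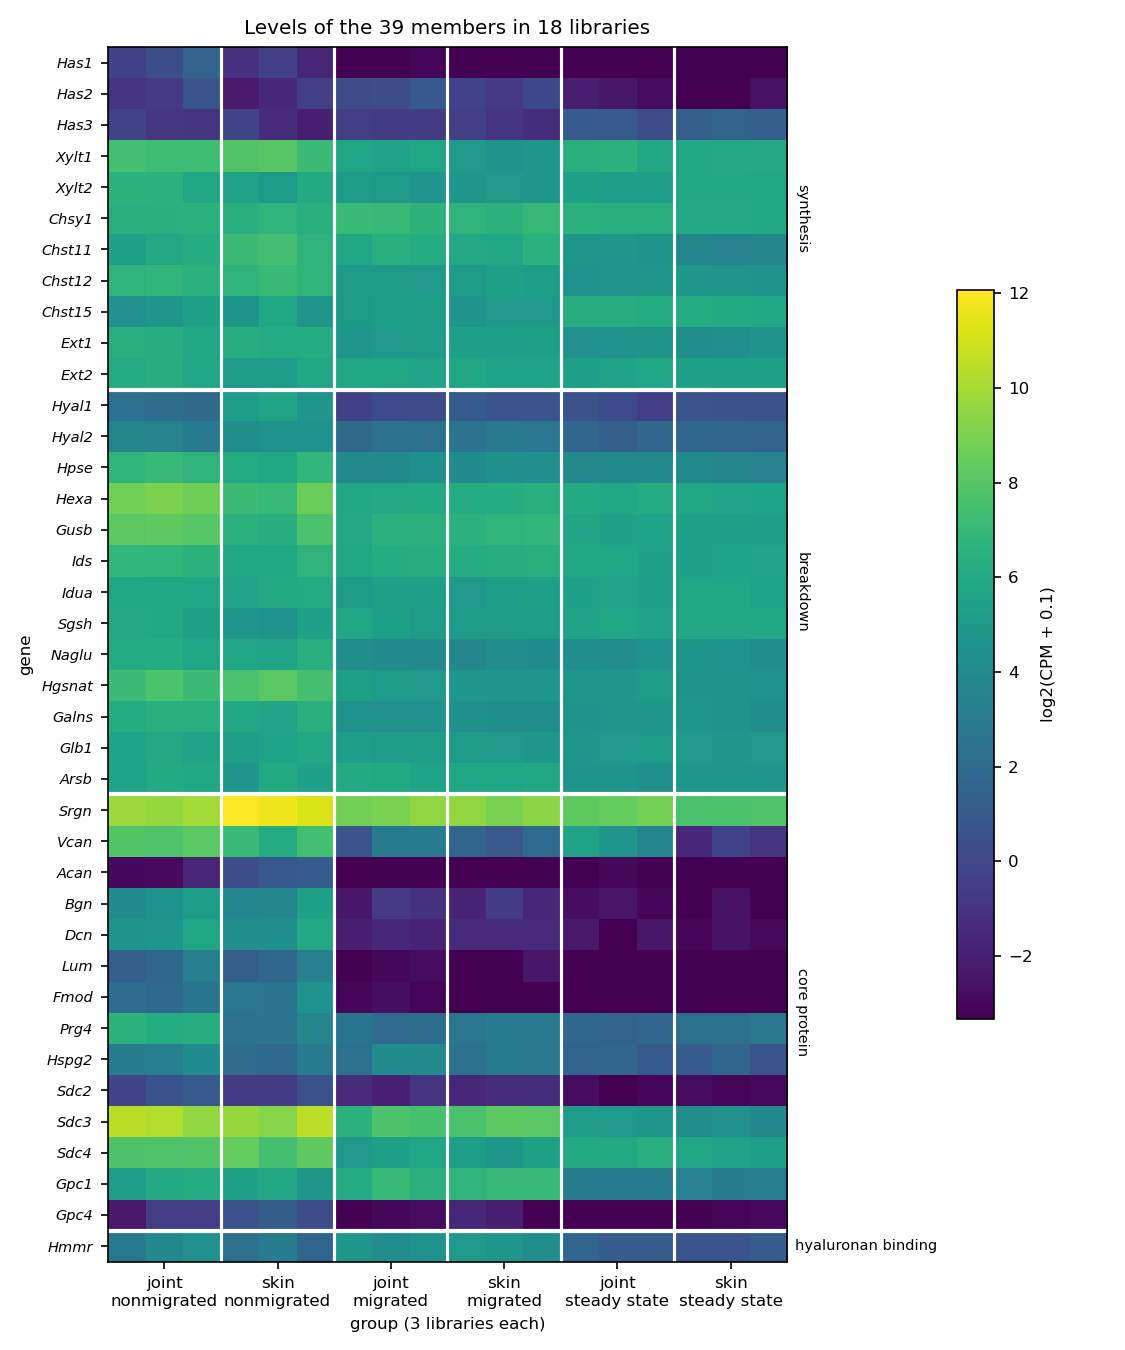
Level of each of the 39 members (rows, ordered by role) in each of the 18 libraries (columns, 3 per group), as color on a scale of log2(CPM + 0.1). Core proteins hold both the highest rows (Srgn, Sdc3) and rows that were dark in all node groups (Acan, Lum, Fmod), and breakdown genes such as Hexa were brighter in the nonmigrated groups.

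The first question was how cells that had left the inflamed tissue differed from those that had stayed. A gene counted as called if its adjusted p in edgeR's quasi-likelihood test was under 0.05 (Benjamini-Hochberg over all genes) and its level differed by more than 1 on the log2 scale. In the joint, 24 of the 39 members were called lower in migrated than in nonmigrated cells and 0 were called higher, against 34.3% of all 16777 tested genes called in either direction (18.4% lower, 16% higher). The median log2 fold change of the 39 members was -1.65, beside 0.02 for all genes. In the skin, 21 members were called lower and 2 higher, against 35.4% of all genes called (19.7% lower, 15.7% higher), with a median of -1.55 beside 0.01. At both sites 20 of the members were lower, and 12 were called at neither. All 39 passed the filter on low counts in this fit. Has1, Acan, Dcn, Lum, Fmod, Sdc2 and Gpc4 passed only through the nonmigrated groups, so that their lower level in migrated cells was set by the filter. Their part in these counts and medians is no support for a direction.

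Among synthesis genes 5 of 11 were called lower in the joint (median -0.35) and 3 of 11 in the skin (median -0.71), Has1 included. Has1, a hyaluronan synthase, was measured at 0.684, 1.2 and 2.77 CPM in joint nonmigrated cells and at 0, 0 and 0.0214 CPM in joint migrated cells. The groups did not overlap, and the pooled rate was 212 times lower in migrated cells, with a 95% exact counting interval of 37.4 to 8410 because a single read was counted there. Such intervals, here and below, cover counting error and not the spread between libraries. In skin, Has1 was at 0.360, 0.643 and 0.208 CPM in nonmigrated cells and at 0 in all 3 migrated libraries, which is at least 8.46-fold lower when 3 counts over the group are taken as the floor. Has1 passed the filter only through the nonmigrated groups. Its direction was therefore set by the filter, and the lack of overlap is no support for it.

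The xylosyltransferase Xylt1, which starts the chain on the core protein, was at 180, 158 and 155 CPM in joint nonmigrated cells and at 56.0, 47.1 and 53.8 CPM in joint migrated cells. In skin it was at 235, 267 and 150 CPM in nonmigrated and 31.8, 25.2 and 29.6 CPM in migrated cells. Every migrated library was below every nonmigrated one. Its log2 fold change was -1.65 ± 0.188 (SE, adjusted p = 2.26e-05) in the joint and -2.92 ± 0.198 (adjusted p = 5.87e-07) in the skin. The paralog Xylt2 was called in the joint only, at -1.39 ± 0.252, and its value in skin was -0.71 ± 0.252; the difference between sites did not pass the test (adjusted p = 0.244).

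Chst12 fell at both sites, by 1.62 in the joint and by 1.52 in the skin on the log2 scale, from 91.4 to 132 CPM over the 6 nonmigrated libraries to 30.4 to 44.1 CPM over the 6 migrated ones. Ext1, a subunit of the heparan sulfate polymerase, fell by 1.15 in the joint, while in skin its change of -0.84 ± 0.137 was under the fold limit. Its partner Ext2 was not called at either site (-0.35 and 0.23). Chsy1, Chst11, Chst15, Has2 and Has3 were also not called at either site. Of these, Has2 was called higher in migrated cells without skin nonmigrated replicate 3 (2.01, adjusted p = 0.0457) in the skin and without joint nonmigrated replicate 3 (1.55, adjusted p = 0.0334) in the joint. Chst11, another chondroitin sulfotransferase, was at -0.98 ± 0.256 in skin and was called lower there without skin nonmigrated replicate 3 (-1.17) or skin migrated replicate 3 (-1.2).

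Every call among the breakdown enzymes was in the same direction, with 8 of 13 called lower in the joint (median -1.78) and 7 of 13 in the skin (median -1.58). Hexa was at 435, 517 and 425 CPM in joint nonmigrated cells and at 56.5, 63.2 and 64.0 CPM in joint migrated cells. In skin nonmigrated cells Hexa was at 150, 125 and 396 CPM, the last being the library that stood apart, and in skin migrated cells at 72.5, 73.1 and 79.0 CPM. Thus all migrated libraries were low and alike, and the tissue libraries differed. The log2 fold change was -2.90 ± 0.352 in the joint and -1.58 ± 0.336 in the skin, where it was -0.88 and no longer called without replicate 3 of skin nonmigrated cells.

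Heparanase (Hpse), which cuts heparan sulfate chains, fell by 2.66 in the joint and by 2.04 in the skin, from 57.9 to 129 CPM in the tissues to 15.2 to 21.5 CPM in migrated cells. Of the lysosomal heparan sulfate enzymes, Hgsnat (an acetyltransferase) fell by 2.24 and by 2.99 and Naglu (a glucosaminidase) by 1.93 and by 1.87 in joint and skin. Galns, a sulfatase of keratan and chondroitin sulfate, fell by 1.78 and by 1.66. Sgsh, Ids and Idua, which act on the same heparan sulfate chain, were not called at either site, with log2 fold changes between -0.73 and 0.16. The galactosidase Glb1 (-0.51 and -0.64) and the sulfatase Arsb (0.03 and 0.26) were not called either. The hyaluronidases Hyal1 and Hyal2 and the glucuronidase Gusb were called in the joint, and Hyal1 and Hyal2 in the skin; they are described with the site comparison below.

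A list of 12 lysosomal genes with no specific role in glycosaminoglycans, such as Lamp1, Ctsb and Ctsd, moved in the same direction, with 9 of 12 called lower in the joint (median -1.35) and 8 of 12 in the skin (median -1.43). Its summed level was 6537 to 11658 CPM in nonmigrated and 1739 to 2680 CPM in inflamed migrated libraries. All 8 monocyte and macrophage markers were also called lower at both sites, with medians of -6.80 and -4.61. So were all 6 neutrophil markers (medians -7.93 and -6.91). B cell markers were called higher for 5 of 5 at both sites, and T cell markers for 6 of 6 in the joint and 4 of 6 in the skin. Dendritic cell markers were higher for 4 of 6 at both sites and lower for 1 in the joint and 2 in the skin. The part of these lists in the levels of the breakdown enzymes and other members was not tested.

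The promoter sequences of the breakdown enzymes are shown because lysosomal genes are known to be regulated in part through the E-box core CACGTG. RefSeq promoters (GRCm38.p6, 250 bases before to 50 bases after the gene start) matched 28 of the 39 members. The palindromic core occurred in 3 of 11 matched breakdown genes, 2 of 7 synthesis genes (Ext2 and Chsy1) and 0 of 9 core proteins, beside 8.09% of 27025 genes. All 3 of the breakdown genes also had the longer form GTCACGTG on one strand or the other, which includes the core and was looked at after the matches were seen. It occurred in 2.55% of all genes. Distances are to the RefSeq gene start, which can differ from the GENCODE start. For Naglu the GENCODE start, 101070012, lies upstream of the core. The windows of 30 bases are written 5′ to 3′ on the strand of the gene, with the core in capitals.
Glb1 (chr9:114401018-114401047, plus strand, core starting 48 bases before the gene start): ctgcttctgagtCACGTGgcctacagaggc
Naglu (chr11:101070009-101070038, plus strand, 73 bases before): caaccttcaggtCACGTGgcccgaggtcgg
Sgsh (chr11:119355522-119355551, minus strand, 29 bases before): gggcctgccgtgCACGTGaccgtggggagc
Of these, Naglu was called lower in migrated cells at both sites, and Glb1 and Sgsh were not called at either. A match is a description of the letters in the window and not evidence that a factor bound there.

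Of the 14 core proteins, 11 were called lower in the joint and 0 higher, with a median log2 fold change of -4.06, or -3.41 when Acan, which had no read in joint migrated cells, is set at its bound. Acan, Dcn, Lum, Fmod, Sdc2 and Gpc4 are among them and passed the filter as described above. In the skin 11 were called lower and 1 higher, with a median of -3.28 that was the same with genes at their bounds.

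The small leucine-rich proteoglycans, which bind collagen fibrils, were called lower at both sites. Decorin (Dcn) was at 24.4, 27.1 and 52.5 CPM in joint nonmigrated cells and at 0.144, 0.234 and 0.193 CPM in joint migrated cells, a log2 fold change of -7.49 ± 0.603 (adjusted p = 2.09e-06). In skin it was at 18.8, 20.2 and 62.4 CPM in nonmigrated and 0.279, 0.250 and 0.266 CPM in migrated cells (-6.97 ± 0.620, adjusted p = 3.85e-06). Dcn passed the filter only through the nonmigrated groups, so these p values are no support for a direction. Biglycan (Bgn) fell by 6.32 in the joint and by 6.23 in the skin. The highest nonmigrated library for each of these was replicate 3 of its group.

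Lumican (Lum) was at 2.43, 3.59 and 9.44 CPM in joint nonmigrated cells and had 3 counts in all joint migrated libraries together, a pooled ratio of 236 (95% exact counting interval 80.1 to 1150). In skin the Lum ratio was 183 (50.2 to 1520). Fibromodulin (Fmod) was at 4.57, 3.79 and 6.16 CPM in joint nonmigrated cells and had 4 counts in joint migrated cells, a ratio of 168 (65.2 to 619). In skin Fmod was at 6.42, 5.90 and 23.5 CPM in nonmigrated cells and at 0 in all migrated libraries, at least 266-fold lower. Lum and Fmod passed the filter only through the nonmigrated groups, so their direction was set by the filter. Of the fibroblast list without Thy1, 6 of 7 members were called lower at each site. The highest sum of that list was likewise in replicate 3 of both tissue groups (325 and 205 CPM). The remaining member, Fap, went the other way in the joint, at a mean of 1.46 CPM in nonmigrated and 4.60 CPM in migrated cells, and was called higher, as was Thy1. Collagen genes led that list in the tissues, and Col6a1 was at 0 in all skin migrated libraries. The part of such cells in these levels was not tested.

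Versican (Vcan), a large hyaluronan-binding proteoglycan made by monocytes as well as by stroma, was at 238, 227 and 276 CPM in joint nonmigrated cells and at 1.54, 7.61 and 8.40 CPM in joint migrated cells. In skin it was at 136, 69.7 and 172 CPM in nonmigrated and 3.16, 1.90 and 3.99 CPM in migrated cells. The log2 fold changes were -5.40 ± 0.572 and -5.38 ± 0.590, with no overlap at either site. Macrophage markers were lower in the same libraries, as given above.

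The syndecans, transmembrane heparan sulfate carriers, were all called lower. Sdc3 was at 1405, 1281 and 758 CPM in joint nonmigrated and at 94.0, 221 and 193 CPM in joint migrated cells (-2.76 ± 0.394), and at 837, 622 and 1477 CPM in skin nonmigrated and 197, 297 and 283 CPM in skin migrated cells (-1.92 ± 0.382). Sdc4 fell by 2.45 in the joint and by 2.95 in the skin. Sdc2, at no more than 1.83 CPM, fell by 2.18 in the joint. It passed the filter only through the nonmigrated groups, so its direction was set by the filter. In skin its change of -1.55 ± 0.546 (adjusted p = 0.0293) was lost when skin nonmigrated replicate 3 (-0.91, adjusted p = 0.179) or skin migrated replicate 1, 2 or 3 (adjusted p = 0.0839, 0.0631 and 0.0588) was left out.

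The glypicans are held on the membrane by a lipid anchor. Gpc4 was low throughout, at most 2.22 CPM, and was called lower at both sites (-4.07 ± 0.976 and -3.61 ± 0.840), with 3 counts in joint migrated cells and a ratio there of 19.4 (95% exact counting interval 6.19 to 97.6). Gpc4 passed the filter only through the nonmigrated groups, so its direction was set by the filter. Gpc1 was at 45.2, 53.9 and 29.8 CPM in skin nonmigrated and 102, 129 and 129 CPM in skin migrated cells, a called increase of 1.48 ± 0.296 (adjusted p = 0.00126). In the joint it was at 37.0, 68.8 and 74.1 CPM in nonmigrated and 70.7, 127 and 96.2 CPM in migrated cells (0.71 ± 0.290, not called). The basement membrane proteoglycan Hspg2 (perlecan) was not called at either site (0.03 and 0.36).

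Hmmr, which binds hyaluronan and the mitotic spindle and is highest in dividing cells, was at 5.04, 9.23 and 2.96 CPM in skin nonmigrated and 31.1, 27.5 and 18.2 CPM in skin migrated cells, an increase of 2.15 ± 0.444. In the joint its values of 7.41, 14.3 and 21.7 CPM in nonmigrated and 28.3, 18.3 and 23.7 CPM in migrated cells overlapped (0.69 ± 0.415, not called). The cell division list moved with it, with 6 of 6 markers called higher in skin migrated cells and 0 of 6 called in the joint (medians 1.78 and 0.57). The difference between sites did not pass its test for Hmmr (adjusted p = 0.151), and the part of dividing cells was not tested.

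**Figure D2:**
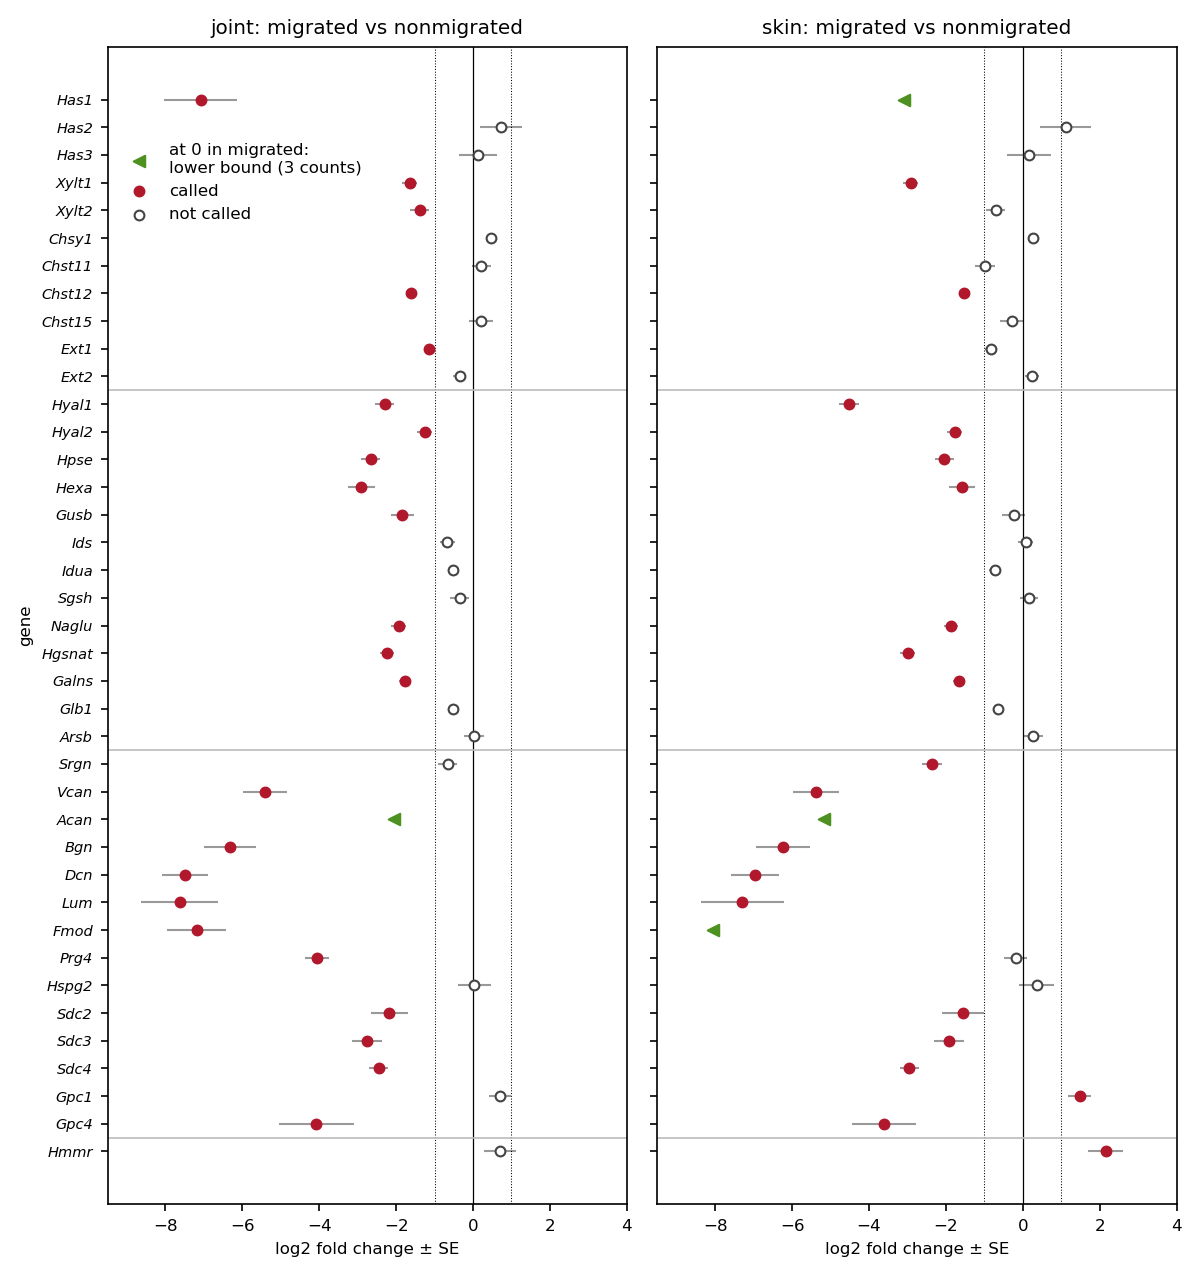
Log2 fold change of each member in migrated against nonmigrated cells (x axis, bars are SE of the fit) in the joint (left) and the skin (right), with rows ordered by role and dotted lines at the fold limit. Filled circles were called, open circles were not, and triangles give the lower bound of genes at 0 in every migrated library, such as Acan at both sites and Fmod in skin. Nearly all filled points lie to the left of 0, the exceptions being Gpc1 and Hmmr in the skin.

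The wider pathway was described with 88 other genes of glycosaminoglycan biology, of which 71 were tested. In the joint 31 were called lower and 13 higher, and in the skin 30 lower and 8 higher. Of all genes 34.3% were called in the joint (18.4% lower, 16% higher) and 35.4% in the skin (19.7% lower, 15.7% higher). Other synthesis genes went both ways, with 9 of 39 called higher and 10 lower in the joint. Extl1, an exostosin-like transferase, rose most at both sites, by 6.92 ± 0.481 in the joint and 4.64 ± 0.416 in the skin on the log2 scale, and the sulfotransferases Chst2 (2.64) in the joint and Chst3 (3.13) and Chst7 (2.52) in the skin were also called higher. Chst13 (-5.61), Chst1 (-3.57) and the epimerase Dse (-2.65) fell most in joint migrated against joint nonmigrated cells, and the heparan sulfotransferase Hs3st6 was at 0 in all skin migrated libraries, at least 9.67-fold lower. Among other breakdown genes 7 of 8 were called lower in the joint and 6 of 8 in the skin, among them the endosulfatase Sulf1 in the joint (-1.80) and the hyaluronidase-family gene Hyal3 in the skin (-1.61).

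Hyaluronan receptors and linkers were called lower for 5 of 6 tested genes at both sites and 0 were called higher. The lymphatic and macrophage receptor Lyve1 was at a mean of 59.6 CPM in joint nonmigrated cells against 0.184 CPM in joint migrated cells (-8.32 ± 1.05), and in skin 3 counts remained in migrated cells, a ratio of 245 (95% exact counting interval 83.3 to 1190). Lyve1 passed the filter only through the nonmigrated groups, so its direction was set by the filter. How many other genes of the wider pathway did so was not counted, and counts of these lists are no support for a direction on their account. The scavenger receptor Stab1 fell by 6.90 and by 6.30, and the hyaluronan-binding Tnfaip6 fell by 7.09 and by 6.61. Of the other core proteins 9 of 18 tested were called lower at each site, led in the joint by Cspg4 (-8.86), Aspn (ratio 155, 42.4 to 1290) and Prelp (-6.37), and 4 were called higher in the joint and 1 in the skin. Spock1, a testican, had 59 counts in joint migrated cells and 0 in joint nonmigrated cells, at least 14.2-fold higher. Whether Aspn and Spock1 passed the filter only through the groups where they were high was not checked, so their values are no support for a direction.

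The next question was which members differed between joint and skin. Between the nonmigrated groups 9 members were called, 4 higher and 5 lower in the joint, against 14.3% of all genes (5.45% higher, 8.86% lower). Acan, among the 5, passed the filter only through skin nonmigrated cells, so its part in this count is no support for a direction. The median over all members was 0.13. Between the migrated groups 0 of 39 members were called, against 1.14% of all genes (0.56% higher, 0.578% lower). At an adjusted p under 0.05 with no fold limit 1 member passed there, Xylt1, which was higher in joint migrated cells by 0.86 ± 0.187 (adjusted p = 0.0436), against 1.78% of all genes, and DESeq2's Wald test called 0 members. At the unadjusted 0.05 level 2770 of 16777 genes passed. A test of whether the migration change itself differed between sites called 5 members, Xylt1, Hyal1, Gusb, Srgn and Prg4, against 6.13% of all genes (3.96% higher, 2.17% lower).

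Prg4 encodes lubricin, the mucin-like proteoglycan that coats joint surfaces. It was at 99.0, 73.2 and 76.9 CPM in joint nonmigrated cells and at 5.40, 6.08 and 13 CPM in skin nonmigrated cells, while all node libraries lay between 2.92 and 7.79 CPM. Only the joint nonmigrated libraries were high, and they did not overlap with any other group. The log2 fold change of joint over skin was 3.34 ± 0.311 (adjusted p = 6.48e-05), Prg4 fell by 4.06 from joint nonmigrated to joint migrated cells, and the migration change differed between sites by -3.88 ± 0.424 (adjusted p = 0.001). Its exons overlap those of Tpr on the opposite strand, which was at 332 to 508 CPM in all libraries. Strand marking by the library kit was not given in the sources used here, so reads of the pair cannot be told apart where they overlap.

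Hyal1, a lysosomal hyaluronidase, had the opposite pattern. It was at 40.0, 50.4 and 26.1 CPM in skin nonmigrated cells, at 4.84, 4.58 and 3.85 CPM in joint nonmigrated cells and between 0.621 and 1.91 CPM in every node library. Skin nonmigrated libraries were thus the highest, by a log2 difference of 3.14 over the joint (joint over skin -3.14 ± 0.245, adjusted p = 2.94e-05). The migration change was -4.52 ± 0.268 in the skin and -2.30 ± 0.252 in the joint, and the difference of 2.21 ± 0.351 passed the test (adjusted p = 0.00463). Hyal1 shares exons on the same strand with Hyal3 and Naa80. Its neighbor Hyal3 was also called lower in the joint (-1.79). Hyal2, a membrane-anchored hyaluronidase, fell in migrated cells by 1.25 in the joint and by 1.77 in the skin. It was at 12.8, 11.8 and 8.09 CPM in joint and 20.4, 22.8 and 23.3 CPM in skin nonmigrated cells (-1.03 ± 0.193), but the change was under the fold limit without joint nonmigrated replicate 3 (-0.85) or skin nonmigrated replicate 3 (-0.99).

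Srgn was at 867, 784 and 997 CPM in joint nonmigrated cells and at 4295, 3223 and 2318 CPM in skin nonmigrated cells. All skin libraries exceeded all joint libraries, with a log2 fold change of -1.90 ± 0.252 (adjusted p = 0.000451). Migrated cells had 442, 510 and 725 CPM in the joint and 717, 507 and 680 CPM in the skin, so that the migrated groups overlapped. Srgn was called lower on migration in the skin (-2.37 ± 0.256) and not in the joint (-0.66 ± 0.245), and the difference of 1.72 ± 0.347 passed the test (adjusted p = 0.0136). Several marker lists differed between these tissues. Mast cell markers summed to 179 to 406 CPM in joint and 54.4 to 349 CPM in skin nonmigrated cells, with 0 of 6 called, and neutrophil markers to 4962 to 15243 and 1419 to 2497 CPM, with 4 of 6 called higher in the joint. T cell markers summed to 164 to 323 and 301 to 843 CPM, with 5 of 6 called higher in the skin, and NK cell markers to 25.2 to 38.7 and 26.8 to 105 CPM, with 0 of 4 called. Dendritic cell markers summed to 229 to 352 CPM in joint and 493 to 1287 CPM in skin nonmigrated cells, with 5 of 6 called higher in the skin. The part of these cells in the Srgn level was not tested.

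Gusb, the lysosomal glucuronidase, was at 293, 323 and 272 CPM in joint nonmigrated and 91.0, 77.4 and 200 CPM in skin nonmigrated cells (1.27 ± 0.296, adjusted p = 0.00931). It fell on migration in the joint, to 63.7, 90.1 and 93.3 CPM (-1.84 ± 0.301), and skin migrated cells had 89.6, 108 and 115 CPM (-0.24 ± 0.293, not called). The difference of -1.60 ± 0.416 had an adjusted p of 0.0382, but it was lost, at 0.0544 to 0.0998, when any 1 of 11 of the 12 libraries was left out, all but skin nonmigrated replicate 3. Hexa was higher in joint than in skin nonmigrated cells by 1.04 ± 0.331 (adjusted p = 0.0371). That call was lost without skin nonmigrated replicate 1 (0.82) or 2 (0.75) and without joint nonmigrated replicate 1 (1.08), 2 (0.95) or 3 (1.09), with adjusted p values of 0.06 to 0.14. Without skin nonmigrated replicate 3 the value was 1.74 and the call held. The summed macrophage markers were higher in the same joint libraries and in replicate 3 of the skin, as given above, although 1 of 8 was called between the tissues, and their part was not tested.

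The migration change of Xylt1 was smaller in the joint by 1.27 ± 0.262 (adjusted p = 0.0148). Chst11 was at 42.6, 62.4 and 74.5 CPM in joint and 148, 174 and 101 CPM in skin nonmigrated cells (-1.24 ± 0.257, adjusted p = 0.00509), with no overlap. Acan was at 0.0274, 0.0332 and 0.210 CPM in joint nonmigrated cells, 9 reads in all, and at 1.14, 1.75 and 2.08 CPM in skin nonmigrated cells, 89 reads in all. The log2 fold change was -4.14 ± 0.720 (adjusted p = 0.00554). Acan passed the filter on low counts only through skin nonmigrated cells. Its direction between the tissues was therefore set by the filter, and this p value is no support for it. Both migrated groups had 0 reads, which is at least 4.15-fold lower in the joint and at least 35.8-fold lower in the skin. In the joint the fall was not called without joint nonmigrated replicate 3 (adjusted p = 0.0658). Of 4 tested chondrocyte markers 2 were called lower in joint than in skin nonmigrated cells, with overlapping sums of 4.90 to 12.6 and 7.13 to 15.3 CPM. Col2a1 was at 1.46 to 3.22 CPM in skin nonmigrated cells. In joint nonmigrated cells Col2a1 was at no more than 0.191 CPM and Col9a1 at 0, whereas Comp, which makes up most of the sum in the joint and which tendon also expresses, was at 4.35 to 11.6 CPM in joint and 2.70 to 7.02 CPM in skin nonmigrated cells. The part of such cells in the Acan level was not tested.

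Hmmr was higher in joint than in skin nonmigrated cells by 1.33 ± 0.437 (adjusted p = 0.0411), although the groups overlapped, and 5 of 6 cell division markers were called in the same direction. The call was lost without joint nonmigrated replicate 2 or 3 or skin nonmigrated replicate 1 or 3, with adjusted p values of 0.085, 0.15, 0.126 and 0.0853. Without skin nonmigrated replicate 3 a total of 11 members were called between the tissues, while all genes called went from 2400 to 3720. The added members were Has2 (2.17), Xylt2 (1.06), Sgsh (1.16) and Hspg2 (1.63), all higher in the joint. In the same setting 8 members had a different migration change, Chst11 (1.39), Hexa (-2.03) and Ids (-1.05) being added, while all genes called went from 1029 to 2610. Without joint nonmigrated replicate 3, 6 and 4 members were called in these 2 comparisons.

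**Figure D3:**
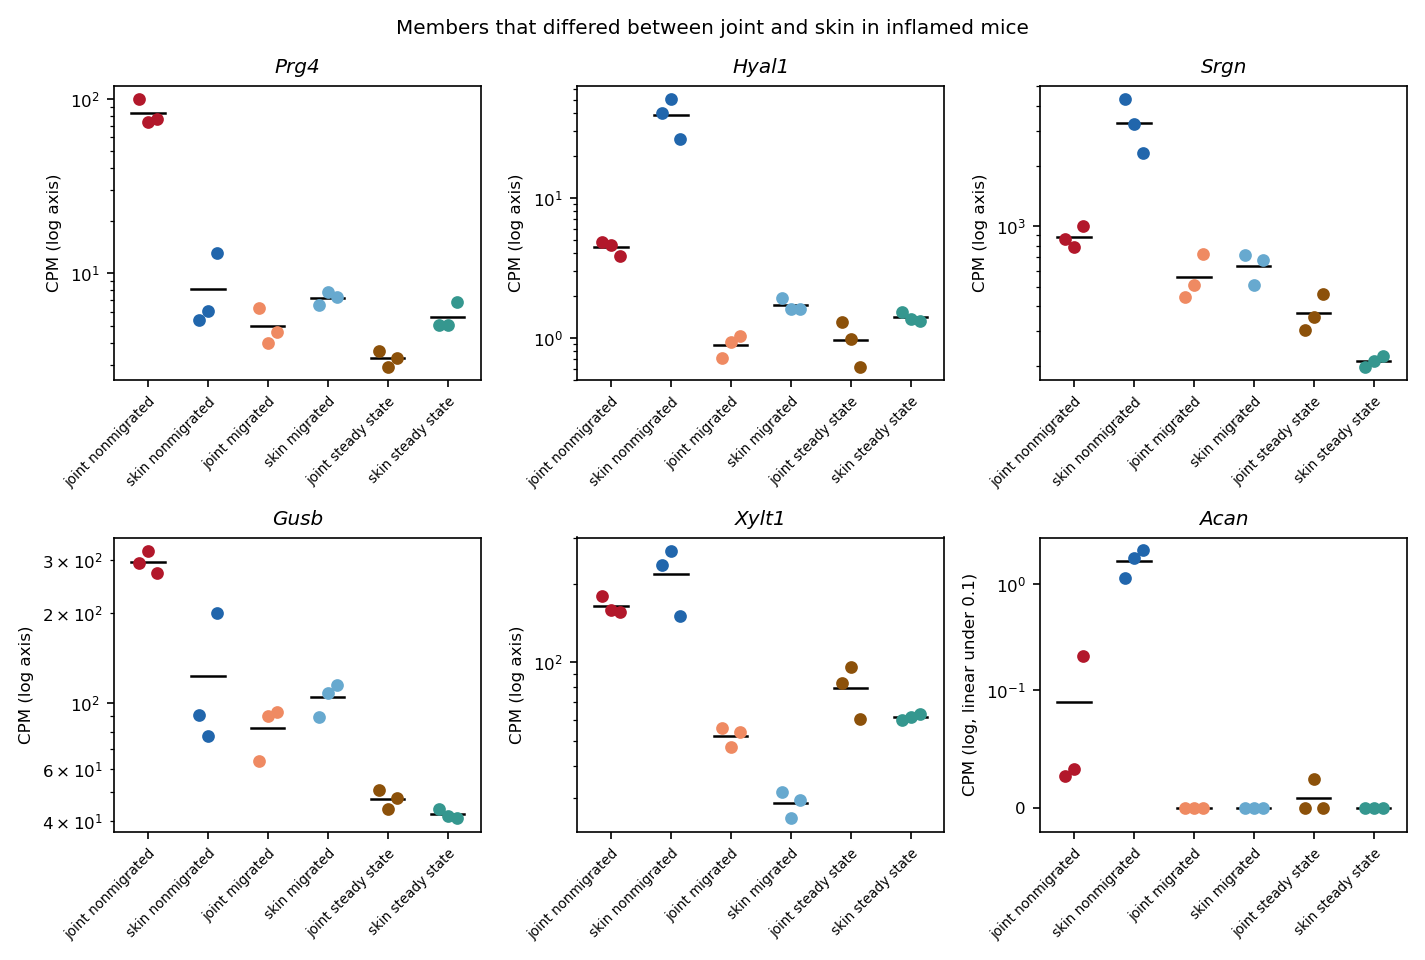
CPM of 6 members (panels) in each library (points, 3 per group) on a log axis, linear below 0.1 for Acan, with the group mean as a bar. Prg4 and Gusb were highest in joint nonmigrated cells, at 73.2 to 99.0 and 272 to 323 CPM. Hyal1, Srgn and Acan were highest in skin nonmigrated cells, and Xylt1 was lowest in skin migrated cells, at 25.2 to 31.8 CPM.

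Of the other pathway genes, 17 of 71 (23.9%) were called between the tissues, against 14.3% of all genes. The sulfotransferases Chst1 and Chst3 (2.00 each) and the hyaluronan receptors Lyve1 (2.45), Stab2 (2.24) and Layn (1.96) were higher in the joint, as was Cspg4 (3.16). Extl1 (-2.74), Hs3st1 (-2.13), B3gnt7 (-1.44), Omd (-3.59) and Gpc6 (-1.71) were lower. Between the migrated groups B3gnt7, which extends keratan sulfate, was called (1.99 ± 0.371). The heparan sulfotransferase Hs3st1 rose on migration in the joint (2.23 ± 0.665) and fell in the skin (-2.31 ± 0.690).

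The last question was how migrated cells of inflamed mice differed from steady-state node cells. In this fit 34 of the 39 members were tested, since Has1, Acan, Lum, Fmod and Gpc4 did not pass the filter on low counts. Of these, 9 were called higher and 2 lower in joint migrated than in joint steady-state cells, against 24.2% of 17107 genes (16.9% higher, 7.31% lower), with a median of 0.43. In the skin 14 were called higher and 3 lower, against 36.5% (21.5% higher, 15% lower), with a median of 0.67. The medians over all genes were -0.02 and 0. Has2, Bgn, Dcn and Sdc2 passed the filter only through the migrated groups, so that their higher level there was set by the filter. Their part in these counts and medians is no support for a direction. Cell type markers differed between these groups too. All 5 B cell markers were called lower at both sites (medians -2.31 and -4.16). Dendritic cell markers were called higher for 5 of 6 in the joint and 6 of 6 in the skin (medians 3.80 and 4.03). Of 8 macrophage markers, 1 was higher and 3 lower in the joint, and 8 higher in the skin. Mast cell markers were higher for 6 of 6 and 1 of 6, and 0 of 6 T cell markers were called. The part of such cells in the member levels was not tested.

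The hyaluronan synthases Has2 and Has3 moved in opposite directions. Has2 was at 1.07, 1.14 and 1.80 CPM in joint migrated and 0.133, 0.0982 and 0.0444 CPM in joint steady-state cells (3.85 ± 0.532, adjusted p = 4.92e-05). In skin it was at 0.745, 0.499 and 0.93 CPM against 0, 0 and 0.0611 CPM, with 2 reads in the steady state and a ratio of 44.2 (95% exact counting interval 11.6 to 376). Has3 went the other way, at 0.616, 0.537 and 0.557 CPM against 2.02, 1.86 and 1.09 CPM in the joint (-1.50 ± 0.296) and at -2.52 ± 0.329 in the skin. Both are low-level genes, and both have exons overlapping a gene on the opposite strand (Has2os and Chtf8). The direction of Has2 was set by the filter, as given above.

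Chst11 rose from 27.8, 29.0 and 24.4 CPM to 54.9, 81.2 and 73.4 CPM in the joint (1.40 ± 0.164) and from 12.5, 11.3 and 13 CPM to 63.7, 60.7 and 90.5 CPM in the skin (2.58 ± 0.173). No groups overlapped. Chst15, which adds a second sulfate to chondroitin, fell by 1.13 in the skin and was at -0.99 ± 0.116 in the joint. Xylt1 fell by 1.07 in the skin and was at -0.58 ± 0.143 in the joint. Xylt2, Chsy1, Chst12, Ext1 and Ext2 were not called at either site.

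Breakdown enzymes differed little between inflamed and steady-state nodes, with 1 of 13 called in the joint and 3 in the skin (medians 0.21 and 0.31). Arsb, which removes a sulfate from chondroitin and dermatan sulfate, was at 66.9, 64.9 and 47.7 CPM in joint migrated and 25.0, 24.6 and 20.9 CPM in joint steady-state cells (1.38 ± 0.126, adjusted p = 1.18e-06). In skin its change was 1.01 ± 0.126 and that of Hyal2 1.02 ± 0.190, both at the fold limit and below it under most other settings (0.91 to 1.01 and 0.88 to 1.07 over all settings), while their adjusted p stayed below 0.05. Gusb rose by 1.33 ± 0.136 in the skin and was at 0.82 ± 0.135 in the joint. Hyal1, Hpse, Hexa, Ids, Idua, Sgsh, Naglu, Hgsnat, Galns and Glb1 were not called at either site.

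Core proteins were called higher in 5 of 10 tested cases in the joint and 8 of 10 in the skin (medians 1.84 and 2.69). Bgn, Dcn and Sdc2 are among the 10 and passed the filter as described above. Gpc1 was at 70.7, 127 and 96.2 CPM in joint migrated against 8.92, 8.37 and 8.16 CPM in joint steady-state cells (3.56 ± 0.188, adjusted p = 1.1e-08) and at 102, 129 and 129 CPM against 11, 9.1 and 9.5 CPM in the skin (3.63 ± 0.189, adjusted p = 4.46e-09). The difference between the sites was -0.07 ± 0.246 and was not called. Sdc3 rose by 2.48 ± 0.270 in the joint and 3.82 ± 0.288 in the skin, from 14.7 to 34.6 CPM over the steady-state libraries. Hspg2 rose by 2.23 ± 0.403 and 1.59 ± 0.411.

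Several of the other calls rested on few reads. Sdc2 had 41 reads in joint migrated and 3 in joint steady-state cells, a ratio of 12.9 (95% exact counting interval 4.13 to 65.3), and in skin a ratio of 8.46 (2.79 to 34.4). Bgn had 44 reads against 6 in the joint, a ratio of 6.94 (2.95 to 19.9), and the call was lost without joint migrated replicate 2 (adjusted p = 0.0588) or joint steady-state replicate 3 (adjusted p = 0.0512). In skin the ratio of Bgn was 12.5 (3.72 to 65.9) and that of Dcn 6.4 (2.26 to 22.2). Srgn was called higher in the skin (1.61 ± 0.198) and was at 0.62 ± 0.194 in the joint. Sdc4 and Prg4 were not called.

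Vcan moved in opposite directions at the 2 sites. It was at 46.6, 25.9 and 12.2 CPM in joint steady-state cells and at 0.224, 0.741 and 0.397 CPM in skin steady-state cells, a log2 fold change of 5.93 ± 0.711 (adjusted p = 0.000153). In migrated cells of inflamed mice the sites overlapped, at 1.54 to 8.40 and 1.90 to 3.99 CPM, and Vcan fell by 2.24 ± 0.557 in the joint and rose by 2.76 ± 0.719 in the skin. The difference of -5.00 ± 0.906 passed the test (adjusted p = 0.00433). The titles of the steady-state groups differ in treatment (PBS and Naive) as well as in site, and these cannot be told apart. Neutrophil markers (398 to 790 against 10.7 to 17.5 CPM) and macrophage markers (405 to 565 against 51.8 to 79.2 CPM) were likewise higher in joint than in skin steady-state cells, with 6 of 6 and 7 of 8 called, and their part in the Vcan level was not tested.

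Hmmr rose by 3.30 ± 0.255 in the joint and 3.97 ± 0.268 in the skin, from 1.41 to 3.11 CPM over the steady-state libraries to 18.2 to 31.1 CPM. All 6 cell division markers were called higher at both sites, their sum rising from 48.7 to 123 CPM to 455 to 824 CPM.

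Between the steady-state groups 2 members were called, Vcan and Chst11 (1.13 ± 0.167), against 3.89% of all genes (3.23% higher, 0.655% lower). By their titles these were PBS and Naive nodes, so site and treatment cannot be told apart here or in the next test. The change from steady state to inflammation differed between sites for 3 members, against 6.11% of all genes (2.33% higher, 3.78% lower). These were Vcan, Chst11 (-1.18 ± 0.231, adjusted p = 0.00702) and Sdc3 (-1.34 ± 0.367, adjusted p = 0.0349), each with the lower value in the joint. Without skin migrated replicate 3 a single member, Vcan, was called there, Chst11 being at -0.92. The Sdc3 call was lost when any 1 of 8 libraries was left out, namely skin migrated replicates 2 and 3 and all 6 steady-state libraries, with adjusted p values of 0.0585 to 0.1.

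**Figure D4:**
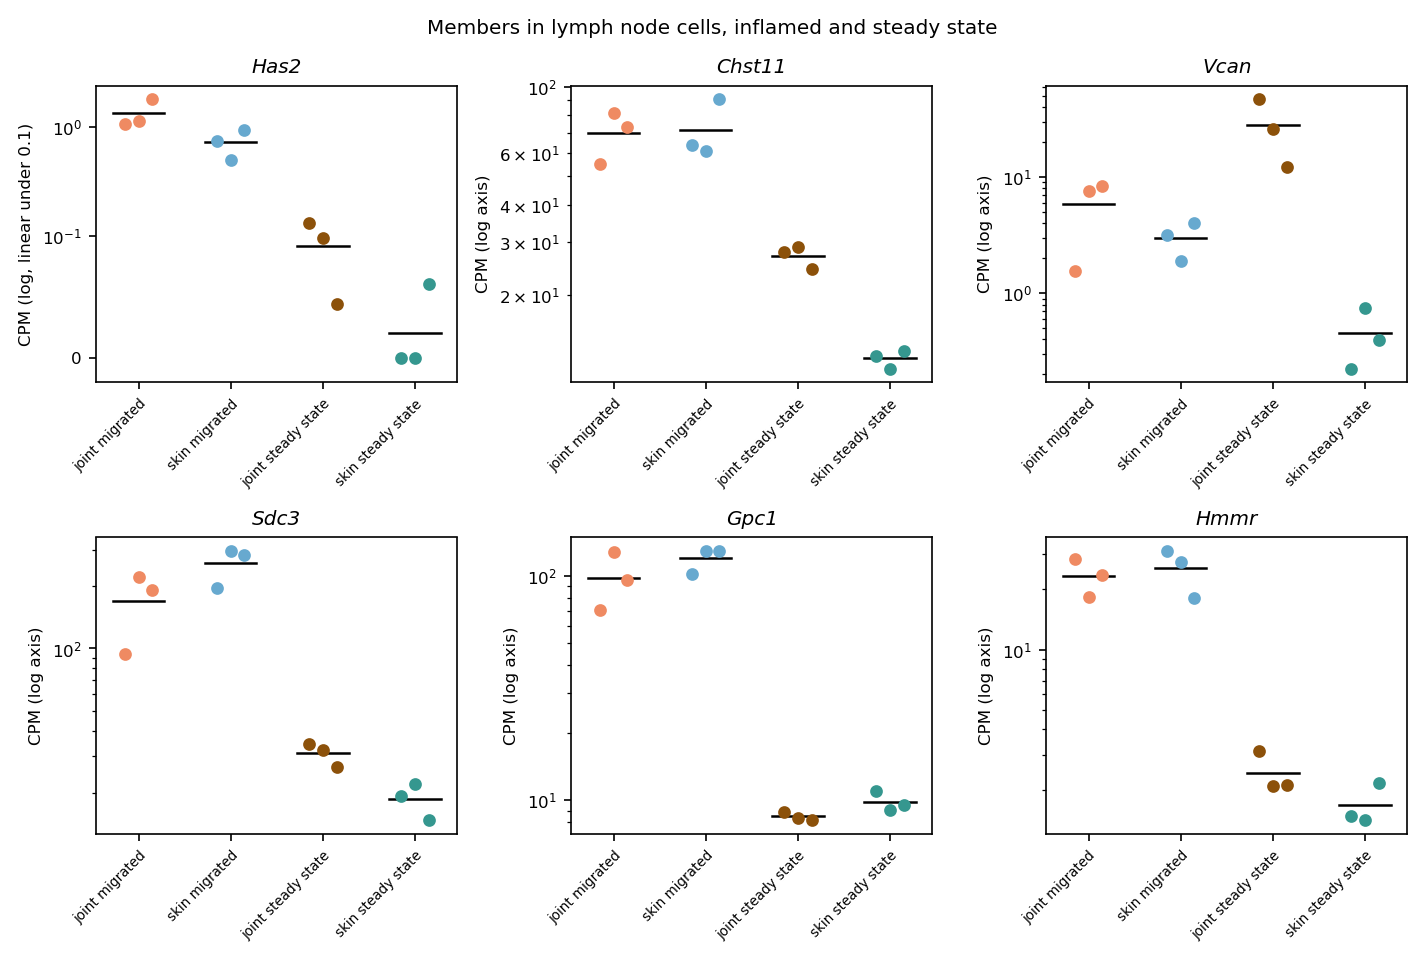
CPM of 6 members (panels) in the 4 lymph node groups, with 3 libraries (points) per group and the group mean as a bar, on a log axis that is linear below 0.1 for Has2. Has2, Chst11, Sdc3, Gpc1 and Hmmr were higher in every library from inflamed mice than in every steady-state library, and Vcan was highest in joint steady-state cells, at 12.2 to 46.6 CPM.

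Of the other pathway genes 59 were tested, and 20 were called higher and 6 lower at each site. That is 44.1% called, against 24.2% of all genes in the joint and 36.5% in the skin. How many of them passed the filter only through the migrated groups was not counted. The largest increases among synthesis genes were Chst7 (6.30), Papss2, which makes the sulfate donor (5.86), and Extl1 (4.12) in the joint, and Papss2 (6.99), Chst7 (5.91) and Hs6st2 (no read in the steady state, at least 5.02-fold higher) in the skin. Chst3, B3gnt7 and Hs3st1 fell at both sites, by 1.78 to 2.48 on the log2 scale. The endosulfatases Sulf2 (4.34 and 5.13) and Sulf1 rose, as did the hyaluronan receptor Cd44 (2.28 ± 0.105 and 3.09 ± 0.109). Cd44 was at a mean of 430 and 524 CPM in joint and skin migrated cells, between the steady-state nodes (90.8 and 62.8 CPM) and the tissues (1640 and 1520 CPM).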

How the data were processed

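Raw read counts per gene were deposited by the authors, who trimmed the reads with Trim Galore, aligned them with TopHat2 to mm10 and counted them with HTSeq under default settings. The 5 summary lines of the counter (11.27% to 15.1% of each library's total) were left out. Gene names and exon lengths came from GENCODE M21 (49326 of 49585 genes matched).

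Differences were tested in R 4.3.3 by the quasi-likelihood method of edgeR 4.0.16, after TMM scaling and filterByExpr (minimum count 10). The 12 inflamed libraries (16777 genes) and the 12 lymph node libraries (17107 genes) had a fit each, in which group was the single factor, and Benjamini-Hochberg adjustment ran over all genes of a comparison. Each SE was obtained from the fold change and its F statistic. The procedure was tested on simulated counts. Sparse genes carry exact conditional intervals of the count ratio (scipy 1.17.1), which leave out the spread between libraries. Libraries of the same group differed by far more than sampling noise (chi-square over degrees of freedom 14.67 to 117.05), so none was treated as a repeat of another. Alternatives included DESeq2 1.42.0.

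All members were named, and from the other pathway lists up to 3 called genes per list, comparison and direction. The marker Col2a1 in skin and the list members given as examples were named outside this rule after their values were seen. Some genes of these lists are not reported here. The members and lists were chosen with earlier results of these data known. Protein sequences were not used here.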

Additional observations from a re-analysis of the deposited data

Results flagged for a closer look

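In 8 cases the change of a member differed between joint and skin by a test of the difference itself, given as joint minus skin on the log2 scale. For the change from nonmigrated to migrated cells these were Xylt1 (1.27), Hyal1 (2.21), Gusb (-1.60), Srgn (1.72) and Prg4 (-3.88), and for the change from steady state to inflammation Chst11 (-1.18), Vcan (-5.00) and Sdc3 (-1.34). Among the other pathway genes the migration change differed for Extl1 (2.29), Hs3st1 (4.54), Chst1 (-3.05), B3gnt7 (3.43) and Spock2 (1.70). The inflammation change differed for Spock2 (1.15), Esm1 (-4.21), Stab1 (-2.10) and Stab2 (2.27). The values of Esm1 rest on 1 read in all skin steady-state libraries together. Site and the treatment named in the steady-state titles cannot be told apart in any difference of the inflammation change. No formal test for single outlying samples was run, since each group had 3 libraries.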

How the results depend on the processing

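Of 94 calls of a member in a comparison, 61 held under every other setting, 33 were lost under at least 1 and 0 reversed. Unless a library is named, the cause of a change was not tested.

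At an adjusted p under 0.001 the number of called members fell from 9 to 3 between the tissues and to 0 in both tests of a difference between sites. All genes called then numbered 3586 (joint, migrated against nonmigrated), 3508 (skin), 511 (between tissues), 0 (between migrated groups), 20 (difference in migration change), 2714 (joint, migrated against steady state), 246 (between steady states) and 152 (difference in inflammation change), instead of 5757, 5940, 2400, 191, 1029, 4143, 665 and 1045. With no fold limit, members called were 1 between migrated groups, 23 and 27 in joint and skin migrated against steady state, 7 between steady states and 6 for the difference in inflammation change, in place of 0, 11, 17, 2 and 3. All genes called were then 9315, 9566, 4627, 299, 8517, 11122 (6249 in skin migrated against steady state with the limit), 1302 and 1724. Between migrated groups 327 genes were called with no filter on low counts, 407 with all 18 libraries fitted together and 487 by DESeq2's Wald test. For the difference in migration change the last 2 of these gave 1664 and 1756 genes, and the fit of all 18 libraries gave 666 for the difference in inflammation change.

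Leaving out 1 library at a time gave 6 to 11 members and 1745 to 3720 genes between the tissues, 0 members and 58 to 171 genes between migrated groups, 4 to 8 members and 582 to 2610 genes for the difference in migration change, and 1 to 4 members and 695 to 1240 genes for the difference in inflammation change. The values 11, 3720, 8 and 2610 were those without skin nonmigrated replicate 3, and 1 that without skin migrated replicate 3. Between migrated groups the 58 genes were those without joint migrated replicate 2. Without joint nonmigrated replicate 3, 23 members were called lower and 1 (Has2) higher in joint migrated cells.

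Replicate numbers were shared by name only. Deviations of same-numbered libraries correlated at 0.021 to 0.254 for migrated with nonmigrated cells and at -0.353 to 0.19 for other pairs of groups. With the replicate number as a block, 23 members were called at each site between migrated and nonmigrated cells, 9 between tissues, 0 between migrated groups, 5 and 3 for the differences, 11 and 17 against the steady state and 2 between steady states. The calls lost were Acan in the joint (adjusted p = 0.0518, edgeR) and Hmmr between tissues (0.0649), and Hspg2 was gained between tissues (0.0296). A fit of only the groups compared gives no value for the tests of a difference, which need all 4 groups.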
